A study of Mus musculus with 12 samples.

Results

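The comparison described here is that of mouse embryonic fibroblasts (MEFs) given AMN107 and interferon-gamma (the AMN107-IFNg arrays, n = 2) with MEFs given interferon-gamma without AMN107 (the IFNg arrays, n = 2). AMN107 is the development name of nilotinib, an oral inhibitor of the ABL kinases that also acts on the PDGF, KIT and discoidin domain receptors. The 4 arrays were taken by their titles from the 12 arrays of the series, and the comparison was read over 12188 genes, each represented by a probe set with 1 annotated gene. The other 8 arrays hold DMSO, AMN107, IFNa and AMN107-IFNa cells, again 2 of each, and DMSO is a common solvent for such compounds. Interferon was present for 6 h, and the labels give neither a concentration for any agent nor a duration for AMN107. Arrays of 1 group are labelled biological replicates, with no word on whether they came from separate embryos or cultures, so the tests measure the spread between these arrays.

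Interferon-gamma binds a receptor made of Ifngr1 and Ifngr2, which activates the kinases Jak1 and Jak2 and, through them, transcription at gamma-activated sites in genes such as Irf1. Type I interferons use another receptor and a complex with STAT2 and IRF9, which binds interferon-stimulated response elements. Fibroblasts are a classical cell for both responses: they make antiviral proteins, guanylate-binding and immunity-related GTPases that attack the vacuoles of intracellular parasites, MHC class I molecules, and chemokines that call T cells.

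RNA was hybridised to Affymetrix arrays, and the values are linear probe set signals. The arrays of a group agreed closely, with a correlation over genes of 0.997 for the IFNg arrays and 0.998 for the AMN107-IFNg arrays, and a log2 replicate difference with an SD of 0.144 and 0.119. The IFNa arrays varied more (0.401), 1 of them had a GAPDH 5'/3' ratio of 0.0252, and they enter the spread that all tests share. Between the groups compared, the GAPDH 5'/3' ratio was 1.09 and 1.10 with IFNg and 1.14 and 1.16 with AMN107-IFNg, and the BioB hybridisation control gave 143.8 and 136.5 against 178.3 and 164.6. Neither measure overlapped between the groups, and their part in the results was not tested. Of 12 fibroblast markers 8 lay above the array median on all 4 arrays, among them vimentin (Vim, 4335 and 4386 on the IFNg arrays, 4075 and 3970 on the AMN107-IFNg arrays), while Thy1, Lum and Postn did not reach it on any of the 4. Of 13 macrophage and leukocyte markers 4 did so, and the pan-leukocyte gene Ptprc had a signal of 4.31 to 4.62.

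AMN107 altered a broad set of genes in interferon-gamma-treated fibroblasts. Of 55 antiviral genes 41 rose and 1 fell, of 38 genes of the amino acid stress response 23 rose and 1 fell, and of 18 cholesterol synthesis enzymes 14 fell, while 8 of 10 interferon-inducible GTPases did not pass the test. With limma and an adjusted p under 0.05, 1632 genes were higher (13.4% of those tested) and 702 lower (5.76%). At least a 2-fold difference was found for 132 higher (1.08%) and 39 lower genes (0.320%); a fold here is a ratio of signal + 8.66, the amount added before taking log2. The signals of the groups did not overlap for 4743 genes in the higher (38.9%) and 3878 in the lower direction (31.8%), the background for any such count below. The median log2 difference of all genes was 0.01. In such bulk RNA, fewer cells of a kind and less RNA per cell cannot be told apart.

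The number of smaller changes rested on single arrays and on the scaling. Without AMN107-IFNg replicate 1 or 2, 686 and 840 genes were higher and 235 and 348 lower. Without IFNg replicate 1 or 2, these counts were 940 and 843 higher and 296 and 314 lower. Without either IFNa array, or without both, they were 3153 to 3156 higher and 1773 lower. Centring each array on its median moved the split to 1068 higher and 1437 lower, with a median of -0.08, and quantile normalization moved it to 1223 and 983. The counts of at least 2-fold changes were 120 to 140 higher and 35 to 41 lower when any 1 array was left out.

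**Figure D1:**
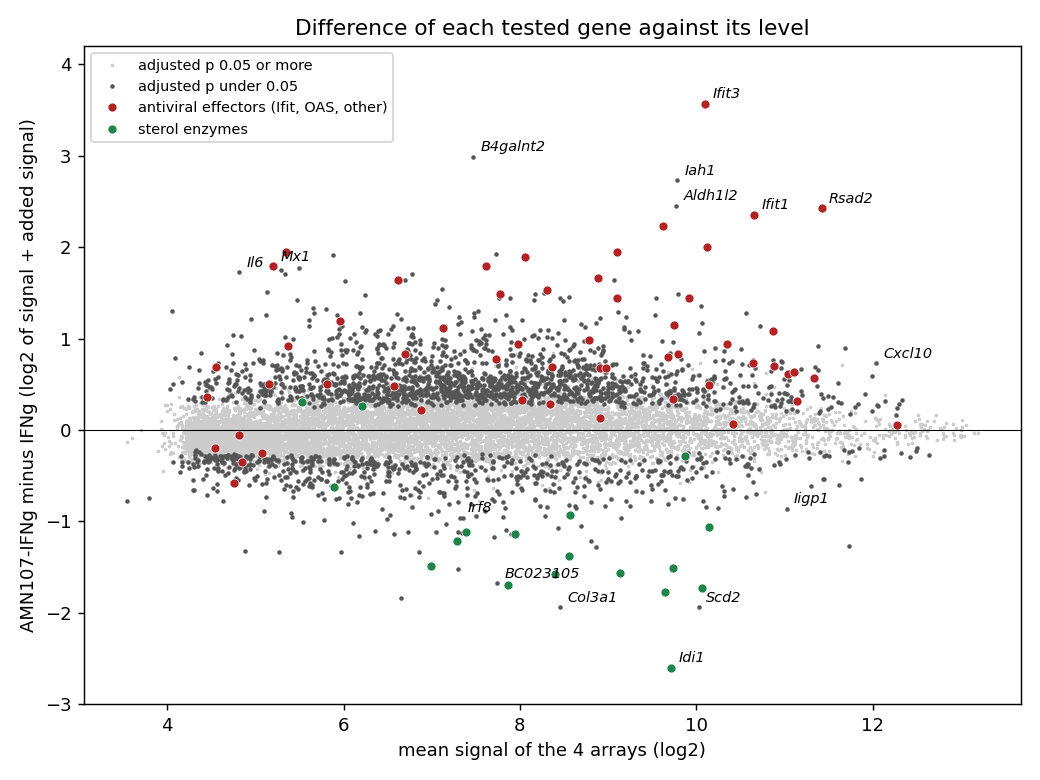
Difference between the AMN107-IFNg and IFNg arrays (log2 of signal + 8.66, vertical) against the mean signal of the 4 arrays (log2, horizontal) for the 12188 genes; dark points have an adjusted p under 0.05. Antiviral effectors (red) lie mainly above 0, up to Ifit3 at 3.57, and sterol enzymes (green) mainly below 0, down to Idi1 at -2.60.

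Promoter sequences are shown for genes whose behaviour differed in the comparison, with the letters that match a known interferon or sterol element in capitals. They were taken from RefSeq windows of the GRCm38.p6 build, 250 bases before to 50 after a transcript start, which 9744 of the 12188 genes have. Matches to the interferon-stimulated response element (GAAANNGAAA on either strand) are shown for Ifit3 (chr19:34583348-34583441, plus strand), Ifit1 (chr19:34640760-34640838, plus) and Rsad2 (chr12:26456538-26456597, minus), which were among the largest rises, and for Gbp2 (chr3:142620579-142620638, plus) and Igtp (chr11:58199497-58199555, plus), which did not change beyond error. Matches to the gamma-activated site (TTCNNNGAA, a palindrome) are shown for Irf8 (chr8:120736162-120736238, plus), which fell, and Irf1 (chr11:53769899-53769957, plus), which did not pass. A match to the sterol regulatory element (TCACNCCAC, either strand) is shown for Hmgcs1 (chr13:119690189-119690247, plus), which fell. Each sequence is written 5′ to 3′ on the strand of its gene and lies before the transcript start of its window.
Ifit3: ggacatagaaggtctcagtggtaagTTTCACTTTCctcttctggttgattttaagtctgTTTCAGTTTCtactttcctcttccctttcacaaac
Ifit1: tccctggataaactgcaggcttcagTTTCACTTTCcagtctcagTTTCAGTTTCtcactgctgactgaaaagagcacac
Rsad2: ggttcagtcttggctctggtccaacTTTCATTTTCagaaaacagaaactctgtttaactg
Gbp2: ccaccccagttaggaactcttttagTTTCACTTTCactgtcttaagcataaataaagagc
Igtp: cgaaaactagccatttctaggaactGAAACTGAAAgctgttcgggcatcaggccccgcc
Irf8: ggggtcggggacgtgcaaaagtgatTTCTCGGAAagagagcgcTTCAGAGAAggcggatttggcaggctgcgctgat
Irf1: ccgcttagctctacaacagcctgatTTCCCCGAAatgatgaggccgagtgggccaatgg
Hmgcs1: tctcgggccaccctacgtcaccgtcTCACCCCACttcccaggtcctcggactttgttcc

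Ifit3 and Ifit1 each had 2 matches to the interferon-stimulated element in their window, and Rsad2, Gbp2 and Igtp had 1. Over all genes with a window 3.44% held such a match, and among genes at least 2-fold higher 13 of 99 did (13.1%), against 0 of 32 at least 2-fold lower. Among all called genes, whatever their fold, 53 of 1302 higher (4.07%) and 14 of 552 lower genes (2.54%) held it. In the antiviral lists 18 of 43 genes with a window held it (41.9%), and in the GTPase lists 7 of 8 (87.5%). The element was thus present in genes that rose and in genes that did not. The gamma-activated letters occurred in 8.36% of all genes and in 5 of 99 genes at least 2-fold higher (5.05%). They occurred in 10 of 43 antiviral genes (23.3%) and 3 of 8 GTPases (37.5%). For the sterol element the share was 1.43% of all genes and 1 of 15 sterol enzymes. A match describes these letters in this window and is not a measured binding site.

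Antiviral effectors were the most strongly raised interferon genes. Ifit3, which works with Ifit1 in binding viral RNA, had signals of 162 and 166 with IFNg and 2125 and 1953 with AMN107-IFNg, a rise of 11.9-fold (log2 3.57, SE 0.15, adjusted p = 4.72e-07). Both AMN107-IFNg arrays lay far above both IFNg arrays. Ifit1, which binds the cap of foreign RNA, went from 486 and 560 to 2658 and 2750 (log2 2.35, SE 0.10, adjusted p = 4.72e-07). Ifit2, which binds AU-rich RNA, went from 217 and 226 to 884 and 876 (log2 1.95, SE 0.22, adjusted p = 0.00021). All 5 tested Ifit genes were called higher, the dim Ifit1bl1 and Ifit1bl2 by 0.69 and 0.36 (Ifit1bl1 lost its call without AMN107-IFNg replicate 1 or IFNg replicate 2, adjusted p = 0.0501 and 0.0683), and the groups overlapped in none of them. Their median log2 difference was 1.95. Ifit1bl1 and Ifit1bl2 lay under the array median on both IFNg arrays and over it on both AMN107-IFNg arrays. After the filter on dim genes both had to differ, so their separation adds nothing to the count.

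Beyond the Ifit family, 29 of 43 other antiviral effectors were higher and 1 was lower, with a median of 0.68. Rsad2 (viperin), an enzyme that makes a chain-terminating nucleotide, went from 886 and 829 to 4589 and 4681 (log2 2.42, SE 0.14, adjusted p = 4.34e-06). Cmpk2, the nucleotide kinase encoded beside it, went from 273 and 269 to 1225 and 1386 (log2 2.23, SE 0.26, adjusted p = 0.000266). For both neighbouring genes the groups lay far apart. Usp18, which removes ISG15 and dampens the type I receptor, went from 459 and 420 to 1884 and 1688 (log2 2.0, SE 0.23, adjusted p = 0.00024). Herc6, an ISG15 ligase, rose by 1.90 and Phf11d by 1.80, the latter with unequal AMN107-IFNg arrays (234 and 392 against 79.8 and 82.0). The gene called lower was Ifi27l2a, at 38.5 and 29.8 against 22.2 and 17.5 (log2 -0.58, adjusted p = 0.043); it is outside the rule for naming genes and was chosen after its values were seen.

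Among these, Mx1 and Ifi44l were below the array median, that is near background, with interferon-gamma alone and became measurable with AMN107. Mx1, a GTPase that traps viral nucleocapsids, had 9.1 and 14.5 with IFNg and 70.4 and 53.4 with AMN107-IFNg (log2 1.79, SE 0.16, adjusted p = 6.27e-05). Ifi44l, an interferon-induced gene of the Ifi44 family, had 11 and 12.1 against 82.5 and 57.3 (log2 1.94, SE 0.14, adjusted p = 1.42e-05). Such sizes depend on the added signal. In all, 4 of 55 tested antiviral genes had both IFNg arrays under the median and both AMN107-IFNg arrays over it. These were Mx1, Ifi44l, Ifit1bl1 and Ifit1bl2. Having passed the filter on dim genes in this way, they had to differ, and they are among the 41 called higher. The count of antiviral genes called higher, 41 of 55 against 13.4% of all genes, was 32 to 46 over leaving out any 1 array, with the lowest value without IFNg replicate 2.

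Oligoadenylate synthetases make the second messenger that switches on RNase L. All 7 tested members were called higher and overlapped in none, with a median of 0.98. Oas3 went from 113 and 109 to 339 and 316 (log2 1.49, SE 0.28, adjusted p = 0.00487) and Oasl1, an inactive relative that restrains Irf7 translation, from 525 and 506 to 1452 and 1383 (log2 1.44, SE 0.09, adjusted p = 9.02e-06). Oas1a, the brightest of them, went from 1234 and 1155 to 2604 and 2484 (log2 1.09, SE 0.11, adjusted p = 0.000115). These 3 more than doubled in the log2 measure. Oasl2 rose by 0.98 (SE 0.19, adjusted p = 0.00543), a call lost without IFNg replicate 2 (adjusted p = 0.0543). Oas1 relatives and the Ifit1-like genes are near-identical copies, and their probe sets may share signal.

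The receptors that sense viral nucleic acids rose in 6 of 14 members, with a median of 0.17, against 13.4% of all genes. Ddx58 (RIG-I), which detects viral RNA ends, went from 229 and 237 to 446 and 460 (log2 0.93, SE 0.15, adjusted p = 0.00187), and other probe sets of the gene gave 0.34 and 1.22. Its regulator Dhx58 rose by 0.90 (another probe set gave -0.03). The endosomal RNA receptor Tlr3 rose by 0.90 (another probe set, at 0.30, was not called) and the p200 family member Mndal by 0.89. Tlr3 stood at 56.5 and 55.2 with IFNg and at 114 and 108 with AMN107-IFNg, without overlap. Zbp1, a sensor of Z-form nucleic acid, gave 0.02 (SE 0.19, adjusted p = 0.947) and the adaptor Sting1 -0.26 (SE 0.21, adjusted p = 0.417); both were chosen after their values were seen.

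**Figure D2:**
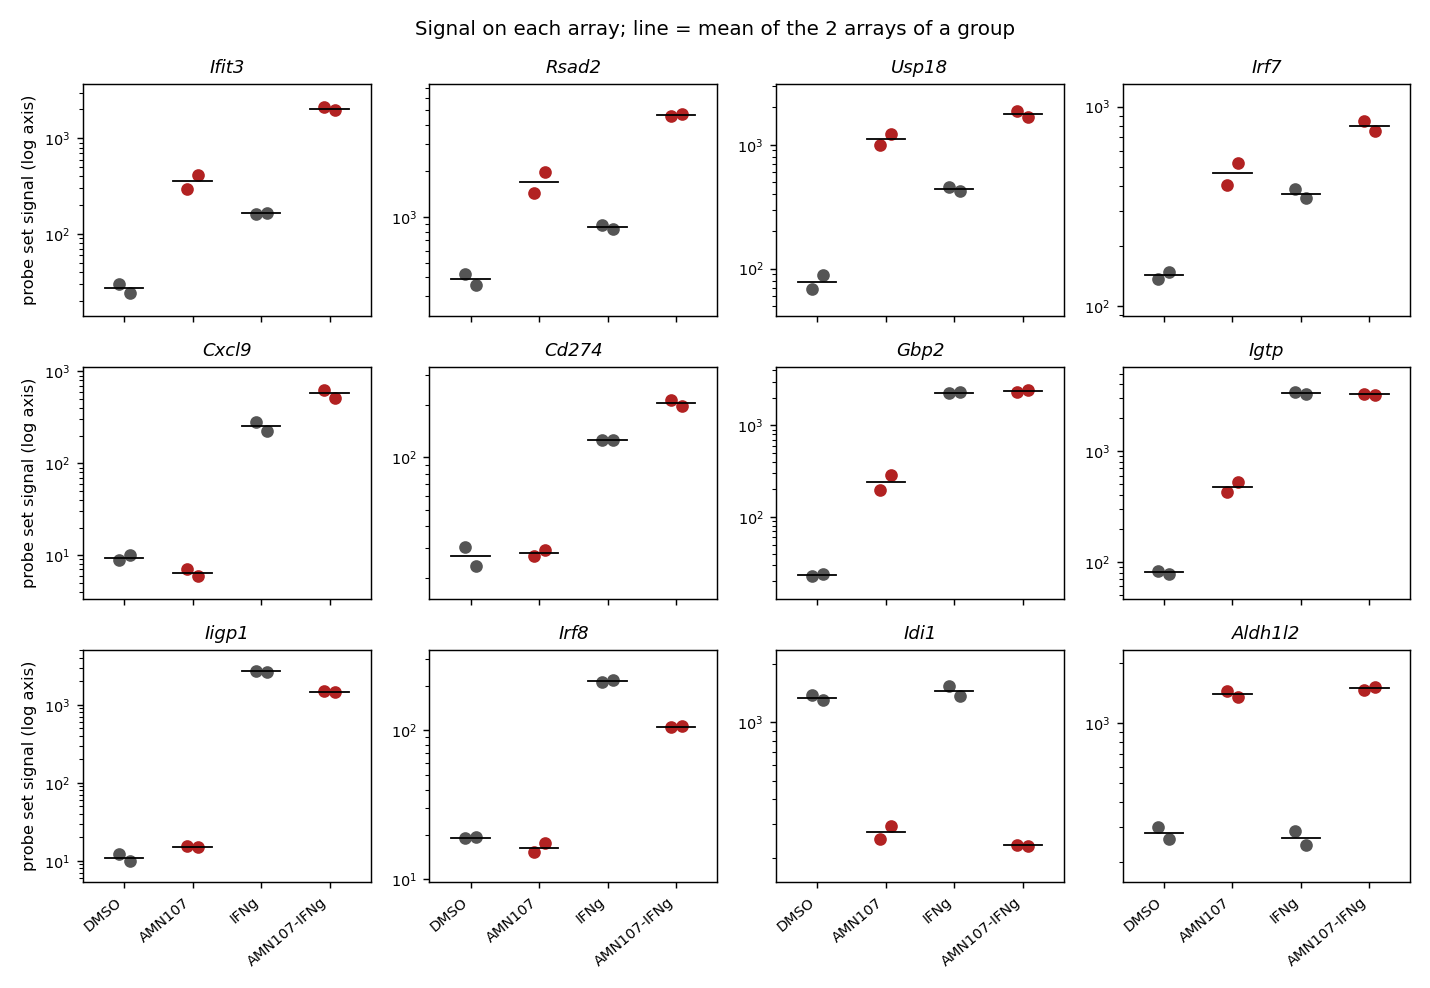
Probe set signal (log axis) of 12 genes on each DMSO, AMN107, IFNg and AMN107-IFNg array; points are arrays, red with AMN107, and lines are means of 2 arrays. Ifit3, Rsad2 and Usp18 are higher with AMN107 both without and with IFNg, Gbp2 and Igtp are higher with AMN107 in cells without IFNg and nearly level in IFNg cells, and Iigp1 and Irf8 are lower with AMN107 in IFNg cells.

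Most interferon-inducible GTPases were not called in either direction. Of the 10 tested guanylate-binding proteins and immunity-related GTPases, 0 were called higher and 2 lower in limma's test, the same as at an unadjusted p under 0.05. At an adjusted p under 0.05, 1 was higher and 3 lower without both IFNa arrays, and 3 were higher and 3 lower in a fit of the 4 arrays alone. Gbp2, which helps lyse pathogen vacuoles, had 2224 and 2286 with IFNg and 2291 and 2452 with AMN107-IFNg (log2 0.07, SE 0.14, adjusted p = 0.767). Igtp (Irgm3), a regulator of the effector GTPases, had 3399 and 3238 against 3294 and 3194 (log2 -0.03, SE 0.10, adjusted p = 0.855). The IFNg and AMN107-IFNg arrays overlapped for Igtp and Irgm2 and lay within a narrow range for Gbp2. Irgm1 gave 0.41 (means of 1582 and 2102), Gbp3 0.24, Gbp2b 0.22 and Gbp7 -0.23, none of them called. All of these passed in the 4 arrays alone, and Irgm1 and Gbp7 also without both IFNa arrays (adjusted p = 0.000559 and 0.0416). Of the 10 GTPases 5 were higher and 3 lower without overlap, against 38.9% and 31.8% of all genes.

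Iigp1 and Gbp6 were the GTPases that fell. Iigp1, an effector that coats the Toxoplasma vacuole, went from 2712 and 2670 to 1485 and 1466 (log2 -0.86, SE 0.11, adjusted p = 0.000616), and its other probe set gave -1.08. Gbp6 went from 225 and 212 to 146 and 143 (log2 -0.57, SE 0.10, adjusted p = 0.00395). Neither overlapped between the groups. In the cells without interferon the pattern was different: AMN107 against DMSO gave 8 of 10 GTPases higher (20.7% of all genes were), with Gbp2 at 2.96, Gbp2b at 2.46, Igtp at 2.43 and Gbp3 at 2.31. The difference between the AMN107 effects with and without interferon-gamma was tested as an interaction and was negative for all 10 (0.894% of all genes were lower in this test, 109 genes, and 0.131% higher, 16 genes). Its median was -2.15, with Gbp2 at -2.89 (SE 0.20, adjusted p = 0.000215), Igtp at -2.46 and Irgm2 at -2.22.

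Without any 1 of the DMSO, AMN107, IFNg or AMN107-IFNg arrays the interaction passed for 6 of the 10 GTPases. Both effects are differences of log2 signals, and Gbp2 rose from a mean of 23.1 with DMSO to 2255 with interferon-gamma alone. Whether signals of this height still followed the amount of RNA in proportion was not tested. Iigp1 (means of 10.9 with DMSO and 15.1 with AMN107) and Gbp6 (13.2 and 16.6) were near background without interferon, where an effect could hardly be measured. Guanylate-binding proteins share long stretches of sequence, so their probe sets may not be fully specific.

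Of 11 interferon receptors, Janus kinases and STATs, 3 rose and 1 fell (median 0.11), against 13.4% and 5.76% of all genes. Ifngr1, the ligand-binding chain of the interferon-gamma receptor, fell from 158 and 155 to 113 and 106 (log2 -0.48, SE 0.10, adjusted p = 0.00882), a call that was lost without AMN107-IFNg replicate 2 (adjusted p = 0.0719) or IFNg replicate 1 or 2 (0.0574 and 0.0501). Jak2, the kinase bound to Ifngr2, rose from 189 and 200 to 286 and 298 (log2 0.56, SE 0.10, adjusted p = 0.00319). Stat2, the type I interferon STAT, rose from 91.8 and 80.9 to 148 and 161 (log2 0.78, SE 0.15, adjusted p = 0.00435). For all of these the groups were separate. Jak1 gave 0.11 (SE 0.34, adjusted p = 0.86), Stat3 0.06 (SE 0.10, adjusted p = 0.739) and Ifngr2 0.47 (SE 0.19, adjusted p = 0.105). Another Jak1 probe set rose by 0.44 (adjusted p = 0.00726), and Ifngr2 passed without both IFNa arrays (0.000904).

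The interferon regulatory factors moved in both directions. Irf7, the amplifier of type I interferon genes, had 384 and 347 with IFNg and 849 and 750 with AMN107-IFNg (log2 1.11, SE 0.24, adjusted p = 0.00893); the call was lost without AMN107-IFNg replicate 1 (adjusted p = 0.0838) or IFNg replicate 2 (0.0703). Irf8, a factor induced by interferon-gamma, fell from 212 and 216 to 105 and 107 (log2 -0.96, SE 0.08, adjusted p = 4.34e-05), and its other probe set gave -0.60. Irf7 roughly doubled and Irf8 dropped to near the midpoint of its former signal, both without overlap. Irf9, the DNA-binding part of the type I complex, had 276 and 253 against 383 and 377 (log2 0.51, SE 0.17, adjusted p = 0.0589). Irf1, an early target of interferon-gamma, had 1610 and 1478 against 1288 and 1255 (log2 -0.28, SE 0.12, adjusted p = 0.13). For Irf9 and Irf1 the arrays were apart and the test over all arrays was not passed. Without both IFNa arrays both passed (adjusted p = 5e-05 and 0.00791), as they did in the 4 arrays alone and with array weights, and Irf1 also with median centring (0.032) and quantile normalization (0.0482). Among 12 feedback inhibitors 2 rose, Usp18 and the phosphatase Ptpn11 (0.63), and 2 fell, the phosphatases Ptpn1 (-0.47) and Ptpn6 (-0.30), against 13.4% and 5.76% of all genes. Ptpn6 lost its call without any 1 of the 4 arrays compared (adjusted p = 0.0792 to 0.108) and Ptpn1 without AMN107-IFNg replicate 1 or 2 or IFNg replicate 2 (0.059 to 0.065), and another Ptpn11 probe set gave -0.32. Socs1 and Socs3, inhibitors of Janus kinases, gave 0.20 (SE 0.18, adjusted p = 0.471) and -0.08 (SE 0.13, adjusted p = 0.708).

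Most antigen presentation genes were not called in either direction. Of 15 MHC class I genes 2 rose and 1 fell, with a median of 0.02, near the 13.4% and 5.76% of all genes. Nlrc5, the transactivator of class I genes, rose from 354 and 384 to 629 and 626 (log2 0.75, SE 0.12, adjusted p = 0.00173), while Tap2, a subunit of the peptide transporter, fell from 187 and 151 to 103 and 100 (log2 -0.68, SE 0.12, adjusted p = 0.00326). Its partner Tap1 had 519 and 431 against 478 and 468 (log2 0.00, SE 0.11, adjusted p = 0.998). Tap2 was lower on both AMN107-IFNg arrays and Tap1 overlapped. The immunoproteasome subunit Psmb9 gave -0.08 (SE 0.18) and the light chain B2m 0.12 (SE 0.06). H2-Bl, annotated as a class I gene and not on the list, went from 20.8 and 18.5 to 92.7 and 104 (log2 1.92, SE 0.17, adjusted p = 6.69e-05). It passed the filter on dim genes with both IFNg arrays under the median and both AMN107-IFNg arrays over it, so it had to differ. Of the 2 tested MHC class II genes 0 were called in limma's test, and 1 was lower at an unadjusted p under 0.05.

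Of 13 chemokines 3 rose (median 0.09), against 13.4% of all genes. They were Cxcl9 and Cxcl10, which attract T cells through the receptor Cxcr3, and Cxcl12, the ligand of Cxcr4. Cxcl9 went from 283 and 224 to 634 and 517 (log2 1.16, SE 0.13, adjusted p = 0.000207) and Cxcl10 from 3158 and 3155 to 5135 and 5360 (log2 0.73, SE 0.11, adjusted p = 0.00125). Cxcl11 had 541 and 382 against 781 and 567 (log2 0.54, SE 0.18, adjusted p = 0.0549), and passed in 8 alternatives, among them without both IFNa arrays (0.00744). These 3 were higher on both AMN107-IFNg arrays, and Cxcl12 rose by 0.76. The T cell chemokine Ccl5 and the monocyte chemokine Ccl2, named after their values were seen, gave 0.12 (SE 0.08) and 0.01 (SE 0.17).

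Of 17 cytokines and growth factors 3 rose and 1 fell, against 13.4% and 5.76% of all genes. Il6, an inflammatory cytokine, was near background at 9.6 and 7.1 with IFNg and reached 55.1 and 40.8 with AMN107-IFNg (log2 1.73, SE 0.16, adjusted p = 7.99e-05). Its IFNg signals were under the array median and its AMN107-IFNg signals over it, so after the filter on dim genes it had to differ. Il15, which sustains natural killer cells, went from 96.1 and 88.8 to 196 and 186 (log2 0.98, SE 0.10, adjusted p = 0.00012). Cd274 (PD-L1), the checkpoint ligand, went from 127 and 126 to 214 and 199 (log2 0.67, SE 0.10, adjusted p = 0.00133), and the inflammatory caspase Casp4 from 65.2 and 81.5 to 141 and 138 (log2 0.86, SE 0.12, adjusted p = 0.000879). None of these overlapped. Cd274 and Casp4 were the 2 of 13 cell death and checkpoint genes that rose, against 13.4% of all genes. Of 12 NF-kappaB subunits and inhibitors 1 rose and 3 fell, against 13.4% and 5.76% of all genes. The inhibitors Nfkbie (-0.72) and Tnip1 (-0.56) led the falls.

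A few genes responded to AMN107 differently with interferon-gamma than without interferon. Cxcl9 gave -0.26 for AMN107 against DMSO, both near background, and an interaction of 1.42 (adjusted p = 0.00798). Mx1 and Ifi44l, at 0.26 and 0.31 without interferon, had interactions of 1.53 and 1.64 (adjusted p = 0.0155 and 0.00507), and Casp4 had 1.03 (adjusted p = 0.0226). The mean signals of Mx1, Ifi44l and Casp4 were under the array medians with DMSO and with AMN107, where an effect could hardly be measured. In the negative direction BC023105, a gene model at 285 and 379 with IFNg and 107 and 87.3 with AMN107-IFNg (log2 -1.68, SE 0.13, adjusted p = 2.27e-05), was at background without interferon (means of 11 and 9.69) and had an interaction of -1.58. Usp18 rose by 3.68 without interferon and by 2.0 with it, an interaction of -1.68 (adjusted p = 0.0395). The count of interactions rested on single arrays: without any 1 array of the 12 it ran from 0 to 443 higher and from 11 to 1138 lower, the largest without IFNa replicate 2 and the smallest without DMSO replicate 1. Without either IFNg array or either AMN107-IFNg array it was 2 to 5 higher and 12 to 17 lower, and without AMN107 replicate 1 or 2 it was 2 and 1 higher and 19 and 12 lower.

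**Figure D3:**
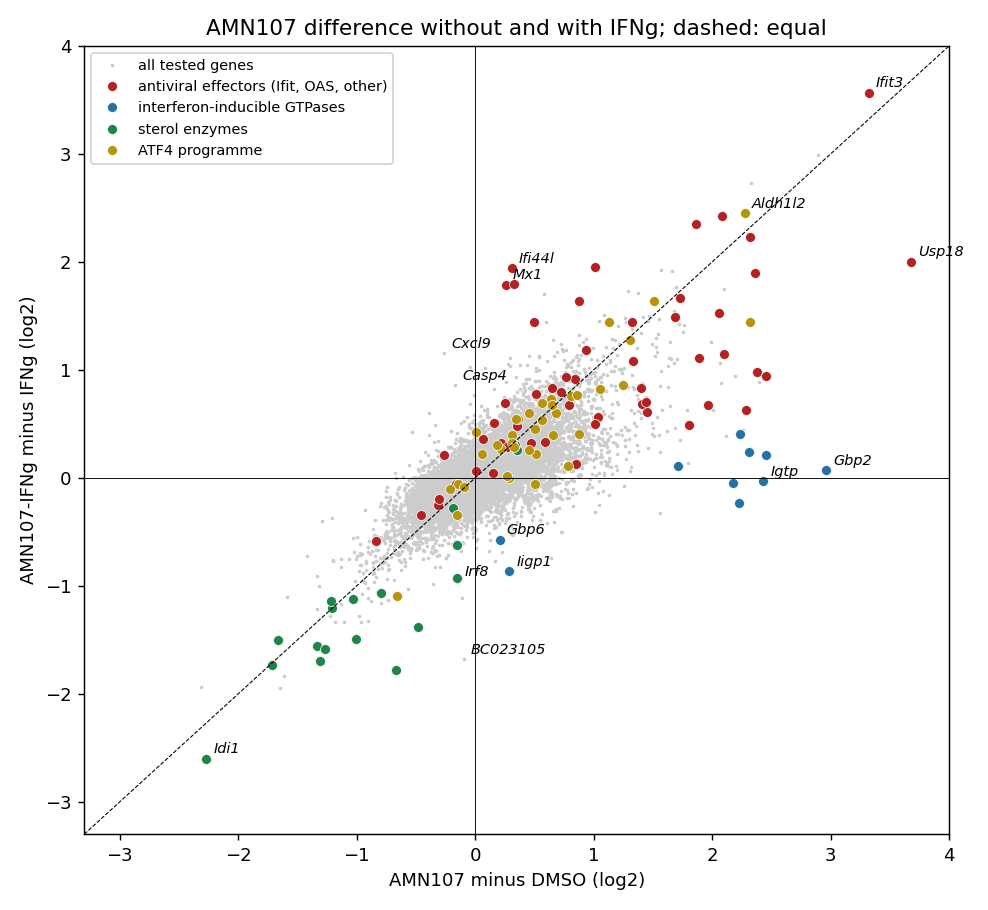
AMN107 difference without interferon (AMN107 minus DMSO, horizontal) and with IFNg (AMN107-IFNg minus IFNg, vertical), both log2, for 12188 genes; the dashed line marks equal differences. Sterol enzymes (green) and the ATF4 programme (gold) lie near the line, while 8 of 10 GTPases (blue) have a difference above 1.7 without interferon and all 10 lie below 0.5 with IFNg.

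Transcripts of most cholesterol synthesis enzymes were lower along the pathway. From mevalonate to lanosterol, 8 of 10 tested enzymes fell, with a median of -1.50 against 0.01 over all genes. Hmgcs1, which makes HMG-CoA, went from 1319 and 1205 to 438 and 439 (log2 -1.51, SE 0.09, adjusted p = 3.97e-06). Idi1, the isopentenyl diphosphate isomerase, went from 1533 and 1371 to 234 and 230, the largest fall of all tested genes (log2 -2.60, SE 0.11, adjusted p = 4.72e-07). Fdft1, the squalene synthase, went from 917 and 771 to 289 and 271 (log2 -1.56, SE 0.10, adjusted p = 9.82e-06), although 2 of its 3 other probe sets gave -0.18 and -0.03. On each the AMN107-IFNg arrays lay far below both IFNg arrays. Lss, the cyclase that makes lanosterol, fell by 1.58 and Mvd by 1.49. Fdps, chosen after its values were seen, had 1825 and 1472 against 483 and 491 and did not pass (log2 -1.73, SE 0.66, adjusted p = 0.0931).

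From lanosterol to cholesterol, 6 of 8 enzymes fell (median -1.13). Msmo1, the methyl sterol oxidase, went from 1289 and 1207 to 362 and 353 (log2 -1.78, SE 0.19, adjusted p = 0.00016), with a dimmer probe set at 0.03. Cyp51, the demethylase that acts first on lanosterol, went from 394 and 329 to 104 and 106 (log2 -1.70, SE 0.11, adjusted p = 1.2e-05). Nsdhl fell by 1.38 and Hsd17b7 by 1.14. The 14 falls among 18 enzymes, against 5.76% of all genes, numbered 13 to 16 when any 1 array was left out. AMN107 against DMSO lowered 12 of the 18 (14.0% of all genes were lower there), with Idi1 at -2.27 and Hmgcs1 at -1.66. Sc5d, the C5 desaturase, was the 1 enzyme with a negative interaction (-0.77, adjusted p = 0.0275), at -0.93 here and -0.16 without interferon.

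**Figure D4:**
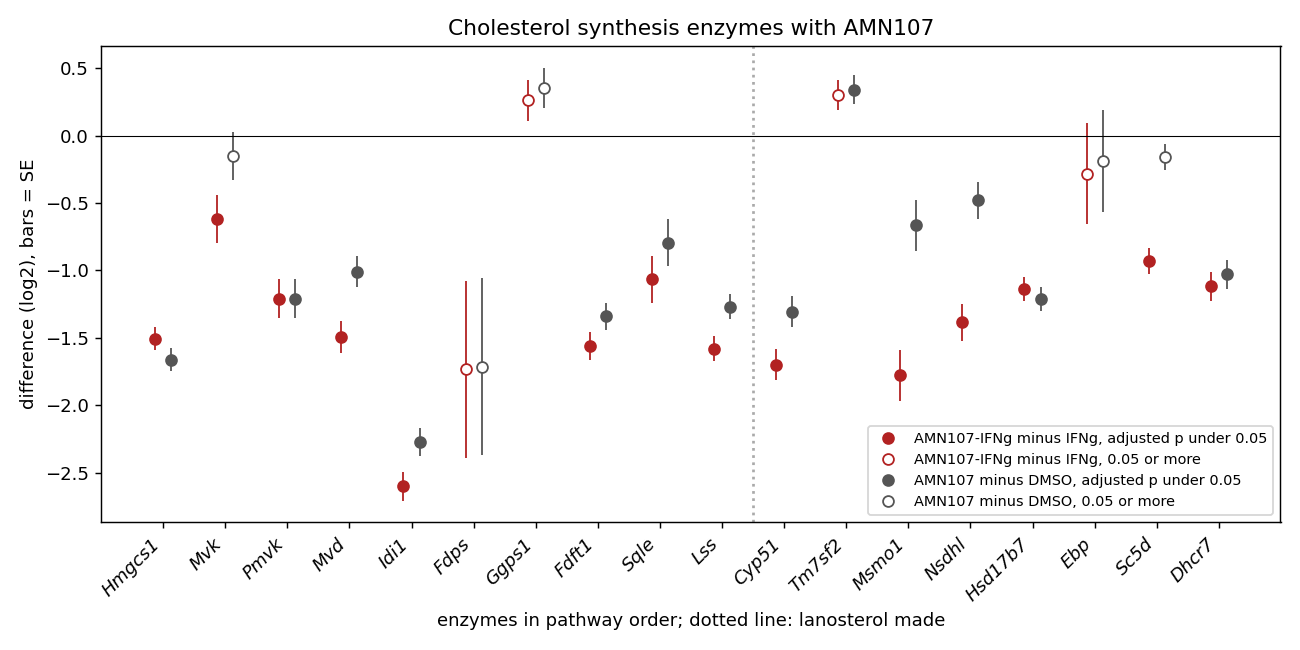
AMN107 difference (log2, bars are SE) of 18 cholesterol synthesis enzymes in pathway order, with IFNg (red) and without interferon (grey); filled points have an adjusted p under 0.05. With IFNg, 14 of 18 enzymes fell, from -0.62 for Mvk to -2.60 for Idi1, and Ggps1 and Tm7sf2 lie above 0 without passing.

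The regulators and the lipid enzymes beside the pathway moved in part. Srebf2, the transcription factor that drives it, fell from 236 and 217 to 102 and 95.7 (log2 -1.13, SE 0.09, adjusted p = 3.34e-05). Insig1, its sterol-dependent inhibitor and itself a target, fell from 282 and 230 to 142 and 127 (log2 -0.88, SE 0.12, adjusted p = 0.000653), and the sterol carrier Stard4 by 0.85. Both were separate from the IFNg arrays. Of 11 genes of sterol sensing and transport 4 fell and 2 rose, against 5.76% and 13.4% of all genes. Among 15 fatty acid genes 4 fell and 1 rose, against the same shares. Scd2, a desaturase, went from 1777 and 1558 to 432 and 421 (log2 -1.94, SE 0.10, adjusted p = 3.46e-06). The elongase Elovl6 fell by 1.08, while Me1, which supplies NADPH, rose by 0.50. Fasn, the fatty acid synthase, had 676 and 546 against 621 and 563 (log2 -0.04, SE 0.20, adjusted p = 0.915).

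The ATF4 programme raises amino acid synthesis, uptake and one-carbon genes under stress. Of its 38 tested genes 23 rose and 1 fell (median 0.42), against 13.4% and 5.76% of all genes. Aldh1l2, a mitochondrial folate enzyme, went from 288 and 243 to 1467 and 1510 (log2 2.45, SE 0.10, adjusted p = 4.72e-07). Atf5, a factor translated under stress, went from 288 and 225 to 852 and 775 (log2 1.64, SE 0.30, adjusted p = 0.00372), and Ddit3 (CHOP) from 118 and 128 to 366 and 334 (log2 1.45, SE 0.16, adjusted p = 0.000192). These 3 were about 3-fold or more higher on the signal scale and did not overlap. Cth, the last enzyme of cysteine synthesis, rose by 1.44, Trib3 by 0.76, the asparagine synthetase Asns by 0.60 and Atf4 itself by 0.39, from 3400 and 3266 to 4347 and 4410. The rise of Atf4 was seen on 1 of 3 probe sets, and the others gave 0.00 and 0.09. The glutathione-degrading Chac1 had 556 and 555 against 562 and 563 (log2 0.02, SE 0.08, adjusted p = 0.908). Without any 1 of the 4 arrays compared, fewer of the genes rose, as over all genes. Without both IFNa arrays 29 rose, where 3156 of all 12188 genes did.

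Of 18 chaperones and folding genes of the endoplasmic reticulum 4 rose (median 0.10), against 13.4% of all genes, with Sel1l at 0.44 and Hyou1 at 0.42. Sel1l lost its call without any 1 of the 4 arrays compared (adjusted p = 0.0692 to 0.109), and its 4 other probe sets, from -0.05 to 0.20, and that of Hyou1 (0.26) were not called. The chaperone Hspa5, named after its values were seen, had 4436 and 4087 against 3899 and 4010 (log2 -0.11, SE 0.06, adjusted p = 0.216). Of 13 cytosolic heat shock chaperones 3 rose and 1 fell, against 13.4% and 5.76% of all genes. Hsph1 led the rises (0.74), and another probe set of it, at 0.61, was not called.

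Lysosome and autophagy genes rose in 9 of 46 cases and fell in 2, against 13.4% and 5.76% of all genes, with a median of 0.13. Sqstm1 (p62), the autophagy receptor, went from 672 and 678 to 1449 and 1391 (log2 1.06, SE 0.07, adjusted p = 1.37e-05). Map1lc3a, an LC3 protein of autophagosomes, went from 424 and 404 to 881 and 886 (log2 1.08, SE 0.11, adjusted p = 0.0001). Atp6v0d1, a subunit of the proton pump, went from 247 and 238 to 484 and 496 (log2 0.99, SE 0.10, adjusted p = 0.00011). These 3 about doubled, without overlap. The membrane protein Scarb2 rose by 0.69 and the calcium channel Mcoln1 by 0.54 (not called without AMN107-IFNg replicate 1, adjusted p = 0.0513), and the cathepsin Ctsl, chosen after its values were seen, fell from 4846 and 4978 to 4005 and 4062 (log2 -0.28, SE 0.05, adjusted p = 0.00199). Without AMN107-IFNg replicate 1 or 2, 4 and 6 of the genes were higher, 5 without IFNg replicate 2, 6 without any 1 of the DMSO, AMN107 or AMN107-IFNa arrays, and 20 without either IFNa array. Without both IFNa arrays 20 of these genes were higher, as were 3156 of all 12188 genes. AMN107 against DMSO called 20 of the 46 higher, where 20.7% of all genes were.

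Known targets of nilotinib, 13 kinases and the quinone oxidoreductase Nqo2, were measured as transcripts, not as activities. Of these 14, 3 rose and 1 fell, against 13.4% and 5.76% of all genes. Besides Abl2, Ddr2 (0.41) and Nqo2 (0.57) rose, calls that both lost without AMN107-IFNg replicate 1 or 2 (adjusted p = 0.0705 to 0.1) or IFNg replicate 2 (0.111 to 0.118). Abl1 had 136 and 136 against 136 and 139 (log2 0.01, SE 0.08, adjusted p = 0.939). Its relative Abl2 rose from 511 and 468 to 715 and 705 (log2 0.53, SE 0.09, adjusted p = 0.00303). Other probe sets of Abl2 (0.28 and 0.53), Ddr2 (0.06) and Nqo2 (0.14) were not called. The collagen receptor Ddr1 fell from 235 and 214 to 129 and 120 (log2 -0.81, SE 0.09, adjusted p = 0.000259), with 5 other probe sets at -0.04 to -0.73, of which 4 were not called. Abl2 and Ddr1 were separate between the groups and Abl1 was not. The receptor Pdgfra was dim (30.0 and 25 against 28.2 and 20.3) and gave -0.14, and Pdgfrb, at 65.0 and 48.1 against 39.1 and 41.4, gave -0.40 (SE 0.17, adjusted p = 0.128), and passed without both IFNa arrays (0.0408).

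Genes that report ERK signalling rose in 5 of 14 cases and fell in 1 (median 0.10), against 13.4% and 5.76% of all genes. The ERK phosphatases Dusp4 and Dusp5 went from 131 and 136 to 252 and 259 (log2 0.89, SE 0.12, adjusted p = 0.000653) and from 162 and 172 to 286 and 296 (log2 0.77, SE 0.12, adjusted p = 0.00198). Spry2, an inhibitor of receptor signalling, rose by 0.59 (another probe set gave 0.04), and Ier3 fell by 0.57. Spry2 lost its call without AMN107-IFNg replicate 2 (adjusted p = 0.0504) and Ier3 without AMN107-IFNg replicate 1 or IFNg replicate 2 (0.0562 and 0.053). Both phosphatases were higher on each AMN107-IFNg array. Ccnd1, the growth factor-dependent cyclin, had 2247 and 2349 against 2294 and 2473 (log2 0.05, SE 0.09, adjusted p = 0.721), while of its other probe sets 1 rose by 0.37 (adjusted p = 0.0039) and 1 gave 0.07.

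Matrix and fibroblast identity genes moved in both directions. Col3a1, a fibrillar collagen, went from 654 and 471 to 141 and 136 (log2 -1.94, SE 0.14, adjusted p = 1.65e-05), and its other probe set gave -1.06. Col8a1 fell by 0.64, whereas Col5a2 and Col16a1 rose by 0.58 and 0.53, so that 2 of 17 collagen chains rose and 3 fell. Over all genes 13.4% rose and 5.76% fell. Col1a1 was dim (38.0 and 32.9 against 34.4 and 34.3) and gave -0.03. S100a4, a calcium-binding protein used as a fibroblast marker and chosen after its values were seen, went from 4852 and 4755 to 1872 and 2095 (log2 -1.27, SE 0.07, adjusted p = 3.89e-06). Col3a1 and S100a4 were lower on both AMN107-IFNg arrays, and the summed signal of the 12 fibroblast markers was 11014 and 10487 against 7275 and 7355, a drop carried mostly by S100a4. The matrix protein fibronectin (Fn1), of the same markers, went from 533 and 291 to 663 and 634 (log2 0.70, adjusted p = 0.0342), a call lost in 10 alternatives, among them without IFNg replicate 2 (log2 0.28, adjusted p = 0.12). Of other matrix genes 4 of 20 rose and 4 fell, with the protease Adamts1 at 0.75 and tenascin Tnc at 0.60.

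Markers of other cell types were mostly dim, and where they moved their part in the results was not tested. Of 10 neuronal markers 5 lay above the array median on all 4 arrays, with a summed signal of 565.2 and 545.1 with IFNg and 941.1 and 838.8 with AMN107-IFNg. The rise came from the tubulin Tubb3 (356 and 339 against 692 and 572, log2 0.84) and the microtubule protein Map2 (0.94), both chosen after their values were seen, while Snap25, Nefl and Nefm were under 9 on all 4. The leukocyte sum was 372.8 and 401.1 against 322.2 and 311.2, the muscle sum 418.6 and 471.2 against 348.1 and 338.4, and the epithelial sum 226.2 and 229.8 against 167.9 and 182.7. The endothelial sum was 328.0 and 324.7 against 283.4 and 305.6, with 4 of 10 markers above the median, and the fat and cartilage sum 161.3 and 154.4 against 211.7 and 203.8, with 3 of 8.

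Of 65 cell cycle genes 51 were not called, 10 fell and 4 rose, against 5.76% and 13.4% of all genes. Of 35 genes of G1/S and DNA replication 7 fell and 4 rose, and of 30 mitosis genes 3 fell (medians -0.12 and -0.13). Tk1, the thymidine kinase, went from 751 and 751 to 373 and 390 (log2 -0.96, SE 0.25, adjusted p = 0.0214), E2f2 fell by 0.70, Uhrf1 by 0.68 and the replication licensing factor Cdc6 by 0.67. Cyclin B2 (Ccnb2) went from 658 and 682 to 439 and 463 (log2 -0.56, SE 0.11, adjusted p = 0.00441). None of these overlapped, and the p53 target Cdkn1a had 416 and 390 against 355 and 369 (log2 -0.15, SE 0.11, adjusted p = 0.36). The 10 falls in these lists became fewer without any 1 of the 4 arrays compared, as did those over all genes. They were 28 without both IFNa arrays, where 1773 of all 12188 genes were lower, against 702 in the main fit. With quantile normalization and median centring they were 16 and 19, where 983 and 1437 of all genes were lower. Tk1 lost its call without any 1 of the 4 arrays compared, E2f2 without any of these but AMN107-IFNg replicate 2, and Uhrf1 and Ccnb2 without AMN107-IFNg replicate 1 (adjusted p = 0.0565 and 0.0523).

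**Figure D5:**
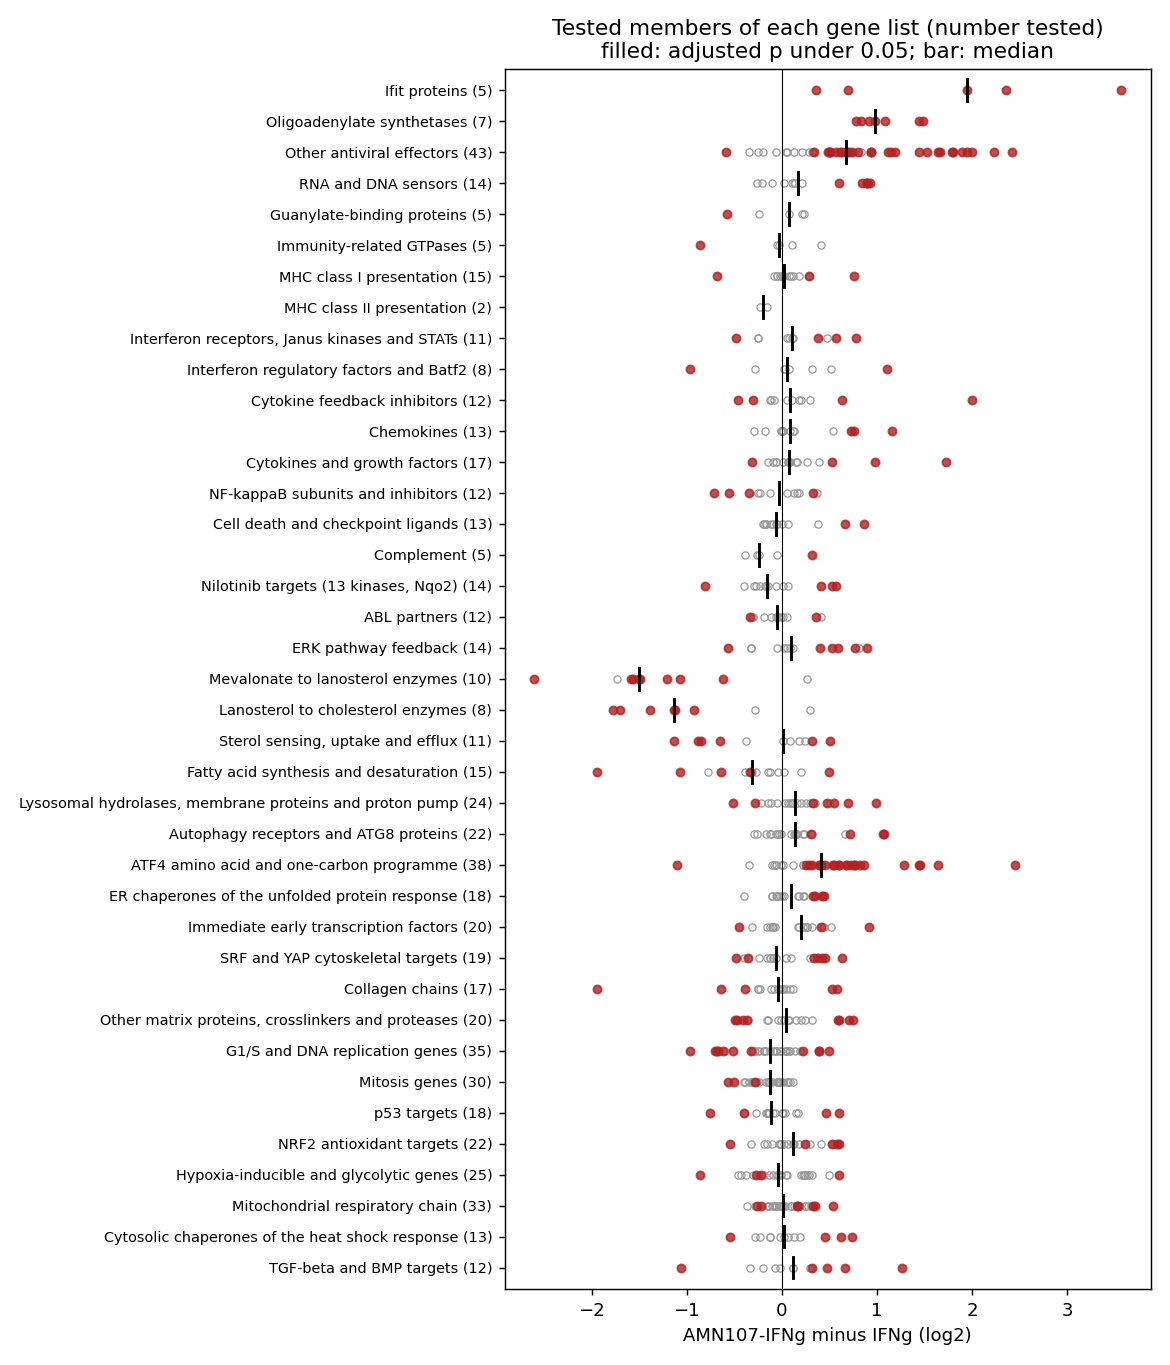
Difference between AMN107-IFNg and IFNg arrays (log2) for the tested members of 39 gene lists; red points have an adjusted p under 0.05, open points do not, and black bars are medians. The Ifit proteins (median 1.95), the oligoadenylate synthetases (0.98), the sterol enzymes (-1.50 and -1.13) and the ATF4 programme (0.42) stand away from 0.

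In the remaining lists, counts should be read against 13.4% of all genes higher and 5.76% lower. Pmepa1, a target and inhibitor of TGF-beta signalling, went from 43.7 and 64.6 to 135 and 145 (log2 1.26, SE 0.16, adjusted p = 0.000399), and Id2, a BMP target, fell from 525 and 598 to 242 and 291 (log2 -1.06, SE 0.11, adjusted p = 0.000153); 4 of 12 genes of that list rose and 1 fell. Klf4 rose by 0.92 among 20 immediate early genes, of which 2 rose and 1 fell, and Ccn2 by 0.64 among 19 SRF and YAP targets, of which 5 rose and 2 fell. The hypoxia gene Egln3 fell by 0.86 (1 of 25 rose and 3 fell), the p53 target Ccng1 by 0.75 (2 of 18 rose and 2 fell) and the antioxidant enzyme Nqo1 by 0.54 (4 of 22 rose and 1 fell). Nqo1 lost its call without AMN107-IFNg replicate 1 (adjusted p = 0.0986) or IFNg replicate 2 (0.065). Of 33 respiratory chain genes 5 rose and 2 fell, led by Sdha at 0.54, whose other probe set gave 0.17 without passing. Complement had 1 of 5 higher and the ABL partner proteins 1 of 12 higher and 1 lower.

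Some of the largest differences lay outside the lists. B4galnt2, a glycosyltransferase of blood group antigens, went from 36.7 and 29.5 to 343 and 301 (log2 2.99, SE 0.14, adjusted p = 9.26e-07), with other probe sets at 0.58 and 1.17. Iah1, an esterase, went from 228 and 219 to 1581 and 1493 (log2 2.73, SE 0.10, adjusted p = 4.72e-07), with other probe sets at -0.09 and 2.49. Dpysl3, a protein of growth cones, rose by 1.93, from 89.1 and 77.1 to 336 and 344. All were several-fold above the IFNg arrays. Car6, Fam229b, Efcab2 and Gm11772 rose by 1.70 to 1.77 from signals of at most 48.3. Gm11772 had means of 14.4 with IFNg and 66.2 with AMN107-IFNg, under and over the array medians, the same limit as for Mx1 and Ifi44l. Cldn9, a tight junction protein, fell from 172 and 153 to 38.9 and 39.4 (log2 -1.83, SE 0.11, adjusted p = 5.41e-06) and the mitochondrial carbonic anhydrase Car5b by 1.52.

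The same AMN107 difference was available in cells without interferon and in cells with IFNa, in arrays that this comparison does not share. AMN107 against DMSO called 20.7% of genes higher and 14.0% lower, and AMN107-IFNa against IFNa 11.3% and 14.8%. Of the 132 genes at least 2-fold higher with IFNg, 122 were also called higher without interferon and 111 with IFNa, and 111 in both. Of the 39 at least 2-fold lower, 37 and 38 were called lower, and 37 in both. At least 2-fold in both were 81 genes with no interferon (61.4% of the 132 and 30.7% of the 264 there) and 61 with IFNa (46.2%, and 44.5% of the 137 there). Idi1, Aldh1l2 and B4galnt2 gave -2.27, 2.28 and 2.90 without interferon and -2.78, 1.98 and 2.83 with IFNa. Among antiviral genes, Ifit3 gave 3.32 without interferon and 2.16 with IFNa, Usp18 3.68 and 0.77, and Oas3 1.68 and -0.03. The IFNa values rest on the uneven IFNa arrays, and differences from the IFNa state were not tested. Those from the state without interferon were tested as the interaction. Of the genes named in this paragraph only Usp18 passed it (-1.68, adjusted p = 0.0395).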

How the data were processed

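Total RNA of 12 MEF samples was measured on Affymetrix arrays. The deposited values are linear signal intensity per probe set; per the submitters' processing notes they were made with MAS5, and its version and scaling are not given in the sources used here. They were not renormalized. Of 45101 probe sets, 64 controls were left out; the platform annotation gave 34945 of them 1 gene, 932 several genes and 9160 no gene. Gene IDs of 34741 were found in a RefSeq table of GRCm38.p6, used for names only, and 0 symbols changed. Genes were tested when the signal exceeded the array median on at least 2 of 12 arrays (12188 genes); of several probe sets the one with the highest mean was used. Log2(signal + 8.66), 8.66 being the mean 25th percentile, was fitted with 1 mean per group over all 12 arrays in limma 3.58.1 (R 4.3.3; lmFit, eBayes with a trend, 6 residual degrees of freedom), two-sided, with Benjamini-Hochberg adjustment over the 12188 genes and a threshold of 0.05, for each of 6 contrasts. A trial of the fit on simulated data used the same spread per gene on all 12 arrays, so it does not cover the uneven IFNa arrays. The number of arrays limits the precision.

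Genes were named by a rule: the 20 largest rises and 12 largest falls that passed without overlap, the 4 largest changes past the test per list, a fixed set of genes of the interferon, nilotinib, sterol and stress pathways, and the 5 largest interactions. The members and lists were chosen with earlier results of these data known. Alternatives were the added signal, the filter, normalization, all probe sets, the arrays fitted, array weights, the trend, a replicate block and leaving out each array. Deviations of same-numbered arrays correlated at -0.143 to 0.312 over 15 pairs of groups (0.0858 for IFNg and AMN107-IFNg), so the numbers were not taken as pairs. Promoter letters were searched with Python 3.11.15.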

Additional observations from a re-analysis of the deposited data

Results flagged for a closer look

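Of 177 named genes, 25 had an AMN107 difference with interferon-gamma that differed from the one without interferon in limma's interaction test (adjusted p under 0.05), 20 of them lower and 5 higher. The values below are the difference with interferon-gamma minus the difference without interferon, on the log2 scale.

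Interferon-inducible GTPases were 9 of these: Gbp2 with -2.89, Igtp with -2.46, Gbp7 with -2.46, Gbp2b with -2.24, Irgm2 with -2.22, Gbp3 with -2.07, Irgm1 with -1.82, Iigp1 with -1.15 and Gbp6 with -0.78. The antiviral and sensor genes Usp18, Mndal and Oasl2 gave -1.68, -1.50 and -1.40: each rose in both states, and by more without interferon (3.68, 2.39 and 2.38) than with interferon-gamma (2.0, 0.89 and 0.98). BC023105 gave -1.58 and Irf8 -0.81, both lowered by AMN107 in interferon-gamma-treated cells. Without interferon Irf8 (means of 19.1 with DMSO and 16.4 with AMN107) and Gbp6 (13.2 and 16.6) lay under the array medians. An effect could hardly be measured there. The class I gene H2-D1 gave -0.69 and the autophagy receptor Sqstm1 -0.62, and both rose in each state. The rise of H2-D1 with interferon-gamma (0.29) lost its call in 11 alternatives, among them median centring (adjusted p = 0.0887) and leaving out any 1 of the 4 arrays compared (0.0788 to 0.201). Outside the interferon genes, the stretch-responsive Ankrd1 gave -1.22, the disulfide isomerase Pdia6 -0.78, the complex I subunit Ndufv1 -0.77 and the adaptor Nck1 -0.67. In a fit of every probe set, other probe sets of Ankrd1 (-0.49), Ndufv1 (-0.13 and 0.07), Nck1 (0.25) and Sqstm1 (0.10) did not pass. Nor did those of Mndal (-1.05), Gbp6 (-0.87) and Irf8 (-0.51), while those of Gbp2, Gbp7, Iigp1 and Ifi44l passed. H2-D1 had other probe sets on either side of the threshold.

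In the higher direction, Casp4 gave 1.03, Gm11772 1.12, Cxcl9 1.42, Mx1 1.53 and Ifi44l 1.64. Cxcl9 had mean signals of 9.41 with DMSO and 6.43 with AMN107, both near background.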

How the results depend on the processing

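Of 151 named genes past the test, 96 stayed past it under every alternative run, and 0 of 177 changed direction. An added signal 4 times larger gave 74 genes at least 2-fold higher and 22 lower. Quantile normalization gave 16 G1/S and mitosis genes lower and 66 lower interactions, and median centring gave 1068 genes higher, 1437 lower and 19 G1/S and mitosis genes lower. A fit of every probe set, a larger set of tests (21244), counts probe sets, of which a gene can have several, and not genes. It gave 63 probe sets at least 2-fold lower, 65 antiviral higher, 30 sterol lower, 37 ATF4 higher and 18 lysosome and autophagy higher. In the same unit 17 of G1/S and mitosis and 4 of GTPases were lower, with 25 higher and 282 lower interactions. The 4 arrays alone gave 2997 higher, 1670 lower, 19 lysosome and autophagy, 28 G1/S and mitosis, and 3 GTPases higher, and no interaction, which needs the other arrays. Without both IFNa arrays these were 3156, 1773, 20, 28 and 1, with 441 higher and 1139 lower interactions. With array weights they were 3015, 1696, 19, 28 and 1, with 406 and 1056. Leaving out any 1 array gave 686 to 3156 higher, 235 to 1773 lower, 120 to 140 and 35 to 41 at least 2-fold higher and lower, 32 to 46 antiviral, 13 to 16 sterol, 17 to 29 ATF4, 4 to 20 lysosome and autophagy, 2 to 28 G1/S and mitosis, 0 to 1 GTPases higher and 2 to 3 lower, 6 to 10 GTPase interactions, and 0 to 443 higher and 11 to 1138 lower interactions. Beyond the fewer arrays or larger number of tests, the cause of these moves was not tested. When an IFNg or AMN107-IFNg array was left out, the lone array was assumed to vary like the other groups. The replicate numbers share only a number: with a replicate block 1612 genes were higher and 679 lower, and 16 and 94 interactions passed. Probe sets near background limit what can be said of genes such as Mx1, Ifi44l and Il6.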
